A study of Mus musculus with 6 samples.

Results

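The 10 genes described here handle iron: Ncoa4, Fth1, Ftl1, Tfrc, Slc11a2, Slc40a1, Ireb2, Aco1, Steap1 and Steap3. They were found by name among 34745 genes of the expression table, and all 10 passed the filter on low counts that left 12941 genes for testing. Ncoa4 and Steap1 were selected on their read counts in these same libraries, so their group differences are a description and nothing is read from a threshold they pass. The other 8 genes were listed for their roles in iron handling.

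The RNA came from MLE-12 cells, an immortalized mouse line of lung epithelial origin. In the NR4A1 overexpression group, 3 libraries were made from cells transfected with pCMV-SPORT6 carrying the open reading frame of the nuclear receptor NR4A1, cloned from lung cDNA of C57BL/6 mice. In the control group, 3 libraries were made from cells given the empty pCMV-SPORT6 vector, and both groups received their plasmid by lipofection. All 6 libraries are from this 1 cell line, and the labels do not say whether replicates were separate cultures, so the p-values below measure the spread between these libraries.

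Cells take up iron as transferrin bound to the transferrin receptor (Tfrc), reduce it in endosomes with STEAP metalloreductases and move it into the cytosol through the divalent metal transporter DMT1 (Slc11a2). Surplus iron is stored in ferritin, a shell of heavy (Fth1) and light (Ftl1) chains, or exported by ferroportin (Slc40a1). The cargo receptor NCOA4 carries ferritin to the lysosome, where its iron is released, a route known as ferritinophagy. Iron regulatory proteins 1 (Aco1) and 2 (Ireb2) bind hairpins called iron-responsive elements in mRNAs when iron is scarce. A hairpin in the 5′ UTR then blocks translation, as for ferritin, and hairpins in the 3′ UTR stabilize the mRNA, as for the transferrin receptor. In the lung, epithelial cells meet inhaled and plasma iron, and ferritin limits the iron that is free to oxidize lipids.

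The hairpins are shown because they join storage, export and uptake genes in 1 regulatory circuit. The transcripts of GENCODE M21 (GRCm38) were searched for a 27-base pattern with an unpaired C, 5 paired bases, a loop of 6 bases that begins CAGTG and ends in any base but G, and a lower stem with at least 4 of its 5 pairs, G-T pairs included. The pattern occurred in 24 of 21877 protein-coding genes (0.110%) and in 4 of the 10 members, and capitals mark the loop. The ferritin and ferroportin matches lie in the 5′ UTR, in exon 1 of 4 for Fth1 (chr19:9982733-9982759, plus strand), exon 1 of 4 for Ftl1 (chr7:45459780-45459806, minus strand) and exon 1 of 8 for Slc40a1 (chr1:45925466-45925492, minus strand). All 4 matches of Tfrc lie in the 3′ UTR, in exon 19 of 19 on the plus strand, at chr16:32631220-32631246, chr16:32631599-32631625, chr16:32631664-32631690 and chr16:32631711-32631737, in this order.
Fth1: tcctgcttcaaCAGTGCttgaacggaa
Ftl1: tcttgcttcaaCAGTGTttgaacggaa
Slc40a1: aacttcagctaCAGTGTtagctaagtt
Tfrc, site 1: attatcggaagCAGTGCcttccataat
Tfrc, site 2: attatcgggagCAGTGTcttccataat
Tfrc, site 3: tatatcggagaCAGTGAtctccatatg
Tfrc, site 4: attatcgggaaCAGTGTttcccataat

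The remaining 6 members had no match to these letters and pairs in their annotated transcripts, which says nothing about other forms of the hairpin. Of the wider iron list described last, Alas2, the erythroid enzyme that starts heme synthesis, also held the pattern.

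A second set of sequences is shown because it bears on how reads of Ncoa4 can be assigned. Gm6768 (ENSMUSG00000021908, chr12:119260934-119264272, plus strand) is a processed pseudogene, a copy of a spliced mRNA put back into the genome. All 1878 bases of its transcript aligned to bases 47 to 1924 of the 3343-base, 10-exon transcript Ncoa4-201, and 1876 (99.9%) were identical. Only 2 bases differed, and the longest identical run was 1311 bases. Both differences are printed with 20 bases on either side and the differing base in capitals. On the Ncoa4 side they lie in coding sequence of exon 8 of 10, at chr14:32176516-32176556 and chr14:32176737-32176777, and on the Gm6768 side at chr12:119262269-119262309 and chr12:119262490-119262530, all on the plus strand of GRCm38.
Ncoa4, site 1: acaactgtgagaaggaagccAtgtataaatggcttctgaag
Gm6768, site 1: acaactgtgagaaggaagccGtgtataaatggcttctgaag
Ncoa4, site 2: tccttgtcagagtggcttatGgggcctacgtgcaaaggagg
Gm6768, site 2: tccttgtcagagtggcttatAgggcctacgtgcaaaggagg

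Total counts per library ranged from 15019038 to 17574340, so that 3 counts, taken as the smallest amount a library can show, correspond to 0.171 to 0.200 CPM, which are counts scaled to a fixed library total. Nr4a1 itself was at 3425, 3580 and 3961 CPM in the NR4A1 overexpression libraries and at 24.8, 30.4 and 26.2 CPM in the vector controls, which matched the labels. Of the epithelial and alveolar markers, Krt8, Krt19, Cdh1, Sftpc, Abca3 and Nkx2-1 were well covered. Sftpb had 189 to 336 counts and Cldn3 had 65 to 96. The rest were low: Epcam had 2 to 22 counts, Cldn7 0 to 11, Lamp3 2 to 6, Sftpd 0 to 2 and Cldn4 0 to 1. Sftpa1 had 0 in every library. Krt18 had 164 counts in NR4A1 replicate 2 and 2 to 21 in the others. NR4A1 replicate 2 stood apart from the other 5 libraries. Its summed smooth muscle markers reached 318 CPM against 1.49 to 2.72 elsewhere (5 of 5 genes highest in it), its endothelial markers 115 against 7.82 to 9.71 (7 of 8) and its fibroblast markers 1592 against 946 to 1070 (6 of 9), while erythroid markers were at 12.4 against 7.71 to 12.6. Dcn made up most of the fibroblast sum in the other 5 libraries, at 905 to 1031 CPM, and was lowest in NR4A1 replicate 2, at 878 CPM. The 6 fibroblast genes highest in that library were next highest in vector replicate 1. Col1a2, 1 of them, had 4504 counts in NR4A1 replicate 2, 284 in vector replicate 1 and 10 to 45 in the rest. In NR4A1 replicate 2, 334 of 12322 genes with a mean of at least 1 CPM lay at least 2-fold above both other NR4A1 libraries. The matching counts were 38 for replicate 1 and 14 for replicate 3. The controls were not alike either. In vector replicates 1, 2 and 3, 108, 20 and 29 genes lay at least 2-fold above both other controls, and 30, 114 and 59 lay at least 2-fold below both. In bulk RNA, more cells of a type and more RNA per cell cannot be told apart. The log2 fold change without NR4A1 replicate 2 is given beside that of each member and of other iron genes named by value.

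No member met both a 2-fold change and an adjusted p under 0.05 (0 of 10), where 22 of 12941 genes did (0.170%) by edgeR's quasi-likelihood test with Benjamini-Hochberg adjustment. At an unadjusted p under 0.05, with or without the 2-fold threshold, 2 of 10 members passed, Ncoa4 and Steap1, beside 6.46% of all genes without the fold threshold and 1.24% with it. DESeq2 with adjusted p called 1 member, Steap1, where it called 73 of 12941 genes. These are the members selected on their counts, so nothing is read from this share. The groups did not overlap for 1 member, Steap1, which was higher in every NR4A1 library, where 6.69% of all genes tested were higher without overlap and 6.22% lower. Over all 6 libraries, none of the 8 members listed for their role had an unadjusted p under 0.05 or groups without overlap. Their median log2 fold change was 0.11, against 0.01 over all genes tested. Without NR4A1 replicate 2 their values ran from −0.24 (Steap3) to 0.32 (Tfrc), and Ftl1 and Steap3 turned negative. In that fit Tfrc had an unadjusted p of 0.0195 (edgeR quasi-likelihood test). An unadjusted p under 0.05 was met by 8.19% of all genes there.

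**Figure D1:**
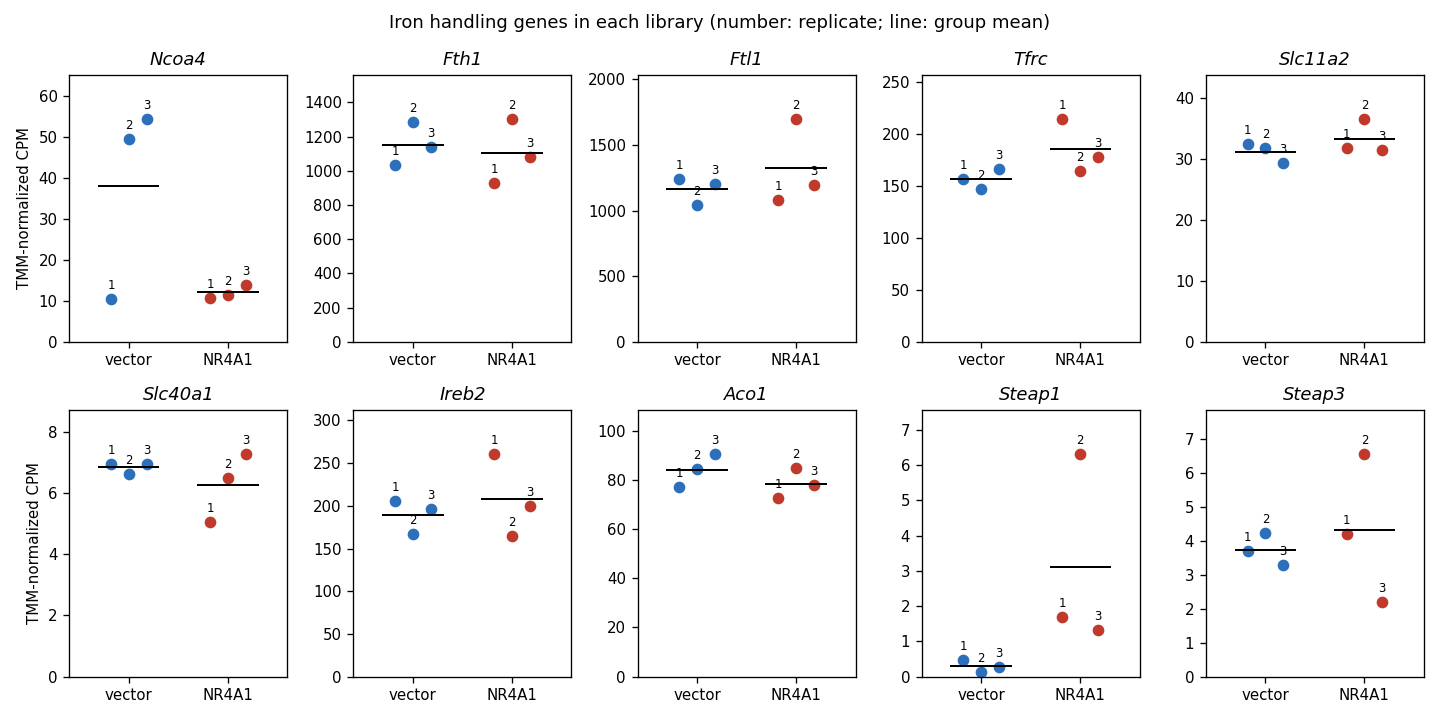
TMM-normalized CPM (linear vertical axis from 0, one scale per gene) of the 10 genes in the 3 vector control (blue) and 3 NR4A1 overexpression (red) libraries, with the replicate number above each point and a line at the group mean. Ncoa4 was near 50 CPM in vector replicates 2 and 3 and near 10 in the other 4 libraries, Steap1 was higher in all 3 NR4A1 libraries, and the other 8 genes overlapped between groups.

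Ncoa4 (ENSMUSG00000056234, chr14:32159865-32179855, plus strand), the ferritinophagy receptor, had 159, 193 and 238 counts in NR4A1 replicates 1 to 3 and 180, 826 and 957 counts in vector replicates 1 to 3. After TMM normalization these were 10.7, 11.5 and 13.7 CPM against 10.4, 49.3 and 54.2 CPM. Vector replicate 1 therefore sat beside the NR4A1 libraries, just below the lowest of them, and replicates 2 and 3 stood far above all others. The group means were 11.999 ± 1.56 and 38.0 ± 24.0 CPM (SD, n = 3 each), and the log2 difference was −1.66. It ranged from −2.11 to −1.31 as each library was left out in turn and was −1.63 without NR4A1 replicate 2. Without vector replicate 1, Ncoa4 was the 1 member called, and since the gene was selected on this split nothing is read from that call.

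Ncoa4 was picked for this split, so its size and rarity are a description and support nothing. The SD of its log2 CPM was 1.33 over the 3 controls, where 120 of 12941 genes (0.927%) had a larger one, and 0.183 over the NR4A1 libraries, where 44.3% had a larger one. When 12322 genes with a mean of at least 1 CPM were searched for the same pattern, vector replicates 2 and 3 both at least 2-fold above the other 4 libraries, 2 were found. They were Ncoa4, whose gap was 3.58-fold, and Gm29609, with 27, 23 and 22 counts under NR4A1 and 40, 115 and 87 under the vector. The opposite pattern, with both at least 2-fold below the other 4, was seen for 9 genes. Gm29609 was named after its values were seen.

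Gm6768, the processed copy of Ncoa4, had 1974, 1907 and 2114 counts under NR4A1 and 1903, 1719 and 1896 under the vector, more than Ncoa4 in every library. In CPM these were 133, 114 and 122 against 110, 103 and 107, higher in every NR4A1 library, a form of non-overlap met by 6.69% of all genes. Vector replicates 2 and 3, the highest for Ncoa4, were by a small margin the lowest for Gm6768. Its log2 fold change was 0.21 (SE 0.0827, adjusted p = 0.740, edgeR quasi-likelihood test) and 0.26 without NR4A1 replicate 2. Per length, Gm6768 was at 33.7 to 39.4 FPKM with NR4A1 and 31.1 to 33.1 FPKM in the controls, while Ncoa4 was at 1.53, 1.64 and 1.98 FPKM against 1.51, 7.19 and 7.86 FPKM. The ratio of the FPKM of Gm6768 to that of Ncoa4 was 25.8, 20.5 and 18.4 in the NR4A1 libraries and 21.9, 4.32 and 4.11 in the controls. With the annotated transcript lengths in place of the lengths behind FPKM it was 22.1, 17.6 and 15.8 against 18.8, 3.70 and 3.53. For Gm6768 these lengths are 1878 bases and 3339 bases, so the second ratio may divide its counts by fewer bases than were counted.

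Of the distinct 50-base stretches pooled over all annotated Ncoa4 transcripts, 17.9% also occur in the Gm6768 transcript and in no other annotated gene. That comparison used the 1878-base transcript of Gm6768, whereas its FPKM values imply 3339 bases, the span of its locus. Bases of the locus outside the transcript were not compared, so 17.9% is not an upper limit. Reads from such stretches cannot be told apart by sequence, and the deposited counts do not say how they were assigned. The sum of both genes was 2133, 2100 and 2352 counts in the NR4A1 libraries and 2083, 2545 and 2853 counts in the controls. On this sum vector replicates 2 and 3, at 152 and 162 CPM, were still the highest, above 121 CPM in vector replicate 1 and 125 to 144 CPM in the NR4A1 libraries. The log2 difference of the sum was −0.10 (SE 0.121). Since Gm6768 gave most of the summed counts in every library, this value cannot give the size of an Ncoa4 difference. How the reads of both loci should be assigned was not tested.

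**Figure D2:**
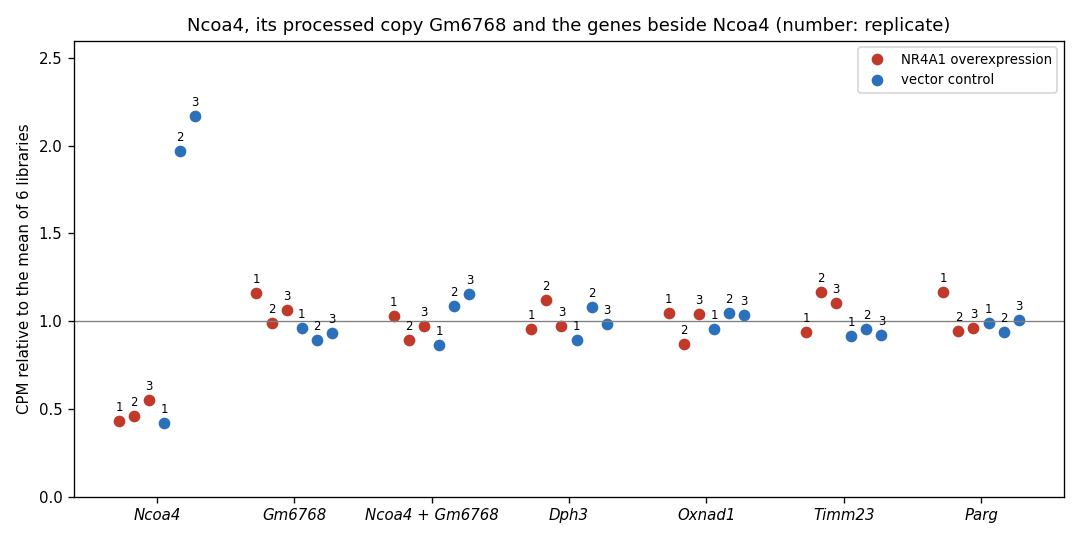
CPM of Ncoa4, its processed copy Gm6768, their sum and the better covered genes beside Ncoa4 on chromosome 14, each divided by its mean over the 6 libraries (linear vertical axis; red, NR4A1 overexpression; blue, vector control; number, replicate). Vector replicates 2 and 3 stand well above the other libraries for Ncoa4, remain the highest by a small margin for the sum and are the lowest, also by a small margin, for Gm6768.

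The genes beside Ncoa4 did not show its split either. Timm23, a subunit of the inner mitochondrial membrane translocase whose gene ends beside Ncoa4 (chr14:32180162-32201898, minus strand), had 269, 381 and 371 counts with NR4A1 and 308, 310 and 315 in the controls. Parg, which degrades poly(ADP-ribose), had 909, 836 and 878 counts against 901, 828 and 936. Dph3 and Oxnad1, on the other side, had 254 to 338 counts and 297 to 371 counts over the 6 libraries. The rest of the genes of the table within 200 kb were low or silent. Galnt15 and Ogdhl had at most 18 and 43 counts, both in NR4A1 replicate 2, and Msmb, Gm17210 and 1700024G13Rik had 0 in every library, which allows up to 0.200 CPM in the shallowest.

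The 5 genes whose log2 CPM followed that of Ncoa4 most closely over the 6 libraries were Gm20518, Cdca5, Cmss1, Ypel3 and Plek2, with Pearson r between 0.974 and 0.981 among 12322 genes compared. Their changes were much smaller: the mean of vector replicates 2 and 3 over that of the other 4 libraries was 1.15-fold for Ypel3, 1.16-fold for Cdca5 and Cmss1, 1.31-fold for Plek2 and 1.41-fold for Gm20518. These correlations rest on the same 6 libraries from which Ncoa4 was selected and describe shape alone.

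The ferritin chains were the most abundant members. Fth1 (ENSMUSG00000024661, chr19:9982703-9985092, plus strand), the heavy chain with the ferroxidase site, was at 930, 1301 and 1078 CPM with NR4A1 and at 1032, 1287 and 1142 CPM in the controls. Replicate 2 was the highest in both groups, and the groups overlapped. The means were 1103 ± 187 and 1154 ± 128 CPM (SD, n = 3 each). On the log2 scale the change was −0.06 (95% confidence interval −0.40 to 0.27, edgeR adjusted p = 0.972). Without NR4A1 replicate 2 it was −0.20.

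Ftl1 (ENSMUSG00000050708, chr7:45457944-45459884, minus strand), the light chain that favours growth of the mineral core, was at 1084, 1696 and 1194 CPM with NR4A1 and at 1244, 1040 and 1203 CPM in the controls. NR4A1 replicate 2 was the highest of the 6 and NR4A1 replicates 1 and 3 lay within the range of the controls. The log2 fold change was 0.19 (SE 0.173, 95% confidence interval −0.22 to 0.60, edgeR adjusted p = 0.919) and turned to −0.03 without NR4A1 replicate 2. Reads of this gene are hard to place, since 50.9% of its 50-base stretches also occur in transcripts of 15 other genes, mostly ferritin pseudogenes. Only Ftl2-ps of these is in the table, with 0 to 2 counts per library.

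The balance of the chains could be read only within a length. The FPKM values imply a length of 866 bases for Fth1 and 2826 for Ftl1, more than the 1941 bases that the whole Ftl1 locus spans. The ratio of Fth1 to Ftl1 was 2.80, 2.504 and 2.95 with NR4A1 and 2.71, 4.04 and 3.10 in the controls as FPKM, but 0.858, 0.767 and 0.903 against 0.830, 1.24 and 0.949 as counts. With the annotated lengths of Fth1-201 (929 bases) and Ftl1-201 (968 bases) it was 0.894, 0.800 and 0.941 against 0.864, 1.29 and 0.989, so which chain was the more abundant mRNA depends on the length. On every scale vector replicate 2 had the highest ratio, NR4A1 replicate 2 the lowest, and the groups overlapped.

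Neither ferritin chain showed the split of Ncoa4. Vector replicate 1 was the lowest control for Fth1 and the highest for Ftl1, and for both it lay inside the range of the NR4A1 libraries.

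Iron uptake was represented by Tfrc and Slc11a2. Tfrc (ENSMUSG00000022797, chr16:32608920-32632794, plus strand), the transferrin receptor, was at 214, 164 and 178 CPM with NR4A1 and at 157, 147 and 166 CPM in the controls. Replicates 1 and 3 with NR4A1 lay above all controls and replicate 2 lay among them. The means were 185 ± 25.9 and 157 ± 9.78 CPM (SD, n = 3 each), and the fold change of 1.18 had a 95% confidence interval of 0.985 to 1.42 (edgeR adjusted p = 0.795). On the log2 scale the difference was 0.24 (SE 0.112). It was 0.32 without NR4A1 replicate 2 (edgeR unadjusted p = 0.0195, adjusted p = 0.551). With the replicate number as a block it was 0.23 (edgeR unadjusted p = 0.037, adjusted p = 0.513).

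Slc11a2 (ENSMUSG00000023030, chr15:100387898-100425072, minus strand), which encodes DMT1, was at 31.8, 36.5 and 31.5 CPM with NR4A1 and at 32.5, 31.7 and 29.4 CPM in the controls. It was among the steadiest members, and all libraries but NR4A1 replicate 2 lay between 29.4 and 32.5 CPM. Its log2 fold change was 0.09 (95% confidence interval −0.12 to 0.31, edgeR adjusted p = 0.921), and 0.019 without NR4A1 replicate 2.

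Slc40a1 (ENSMUSG00000025993, chr1:45908068-45926523, minus strand), the iron exporter ferroportin, was at 5.07, 6.49 and 7.28 CPM with NR4A1 and at 6.95, 6.62 and 6.97 CPM in the controls. The 3 controls were close together (SD 0.192 CPM) and the NR4A1 libraries lay on both sides of them. The log2 fold change was −0.12 (95% confidence interval −0.55 to 0.30, edgeR adjusted p = 0.954), and −0.14 without NR4A1 replicate 2.

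The sensors were Ireb2 and Aco1. Ireb2 (ENSMUSG00000032293, chr9:54863755-54912534, plus strand), iron regulatory protein 2, which is degraded when iron is plentiful, was at 261, 164 and 200.2 CPM with NR4A1 and at 206, 167 and 197 CPM in the controls. In each group replicate 1 was the highest and replicate 2 the lowest. The log2 fold change was 0.14 (SE 0.171, 95% confidence interval −0.27 to 0.54, edgeR adjusted p = 0.945), and 0.28 without NR4A1 replicate 2.

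Aco1 (ENSMUSG00000028405, chr4:40143081-40198338, plus strand), iron regulatory protein 1, works as a cytosolic aconitase while it holds an iron-sulfur cluster. It was at 72.9, 85.0 and 78.0 CPM with NR4A1 and at 77.2, 84.7 and 90.7 CPM in the controls, with overlap between the groups. On the log2 scale the change was −0.10 (95% confidence interval −0.33 to 0.13, edgeR adjusted p = 0.921), and −0.16 without NR4A1 replicate 2. Per length, the ratio of Ireb2 to Aco1 FPKM was 3.06, 1.65 and 2.20 with NR4A1 and 2.28, 1.68 and 1.85 in the controls, and the order of the sensors depended on the length used. With the lengths of the annotated Ireb2-201 and Aco1-201 transcripts the ratio was 1.28 to 2.37 over the 6 libraries, and with merged exons it was 0.918 to 1.69, under 1 in replicate 2 of both groups.

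The 4 members that carry the iron-responsive element pattern moved little, with log2 fold changes from −0.12 for Slc40a1 to 0.24 for Tfrc. Over all pattern genes, 15 were tested, 0 were called (0.170% of all genes were), 1 had an unadjusted p under 0.05 (6.46% of all genes did) and the median log2 fold change was −0.02 (edgeR quasi-likelihood test). The binding of regulatory proteins, ferritin protein and iron itself were not measured here.

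Steap1 and Steap3 belong to the metalloreductase family. Steap1 (ENSMUSG00000015652, chr5:5736317-5749326, minus strand), the member that lacks the NADPH-binding domain of its relatives, had 25, 106 and 23 counts with NR4A1 and 8, 2 and 5 counts in the controls. This was 1.69, 6.31 and 1.33 CPM against 0.463, 0.119 and 0.283 CPM. Every NR4A1 library was above every control, replicate 2 stood far above the other NR4A1 libraries, and vector replicate 2 was below the 3-count limit.

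The means of Steap1 were 3.11 ± 2.78 and 0.289 ± 0.172 CPM (SD, n = 3 each), and the ratio of the means was 10.8. The log2 difference in the fit was 3.40, and it was 2.35 without NR4A1 replicate 2, the library with high smooth muscle and endothelial markers. The part of those markers in the Steap1 count of that library was not tested. Counts were low in all 6 libraries, and Steap1 was at 0.163 ± 0.0967 FPKM in the controls, the lowest of the 10 members per length.

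Steap3 (ENSMUSG00000026389, chr1:120190757-120272705, minus strand), the endosomal ferrireductase, was at 4.19, 6.55 and 2.20 CPM with NR4A1 and at 3.70, 4.24 and 3.29 CPM in the controls. NR4A1 replicates 2 and 3 were the highest and lowest of all 6 libraries. The log2 fold change was 0.20 (SE 0.379, 95% confidence interval −0.69 to 1.10, edgeR adjusted p = 0.967) and turned to −0.24 without NR4A1 replicate 2. The SD of its log2 CPM over the NR4A1 libraries was 0.787, and 4.61% of the genes tested had a larger one.

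Steap2, a ferrireductase and the near neighbour of Steap1 on chromosome 5 (chr5:5664829-5694578, minus strand), had 455, 896 and 517 counts with NR4A1 and 450, 355 and 524 in the controls. NR4A1 replicate 2 was the highest, and in CPM the 3 NR4A1 libraries (30.8, 53.4 and 29.9) lay above the controls (26.0, 21.2 and 29.7) by a narrow margin. Its log2 fold change was 0.57 (SE 0.245, edgeR adjusted p = 0.778) and 0.24 without NR4A1 replicate 2. Steap4 had 6, 17 and 5 counts against 17, 15 and 6, a log2 fold change of −0.37 (SE 0.596, edgeR adjusted p = 0.960) that was −1.08 without NR4A1 replicate 2 (adjusted p = 0.645).

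Of the rest of the genes within 200 kb of Steap1, Gtpbp10, a mitochondrial GTPase, had 562, 513 and 496 counts with NR4A1 and 545, 566 and 551 in the controls. Cfap69 had 23 to 45 counts per library, Gm26825 and Gm8773 had at most 10 and 9, and Gm43219 had 0. The pattern of Steap1 was followed most closely by Cgnl1, Zfp52, Zmat3, Polr3e and Cd36 (Pearson r 0.991 to 0.998 over the 6 libraries). Their means with NR4A1 were 1.28-fold (Cgnl1), 1.99-fold (Zfp52), 1.41-fold (Zmat3), 1.24-fold (Polr3e) and 2.56-fold (Cd36) those of the controls. As for Ncoa4, these correlations describe the libraries on which Steap1 was selected.

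**Figure D3:**
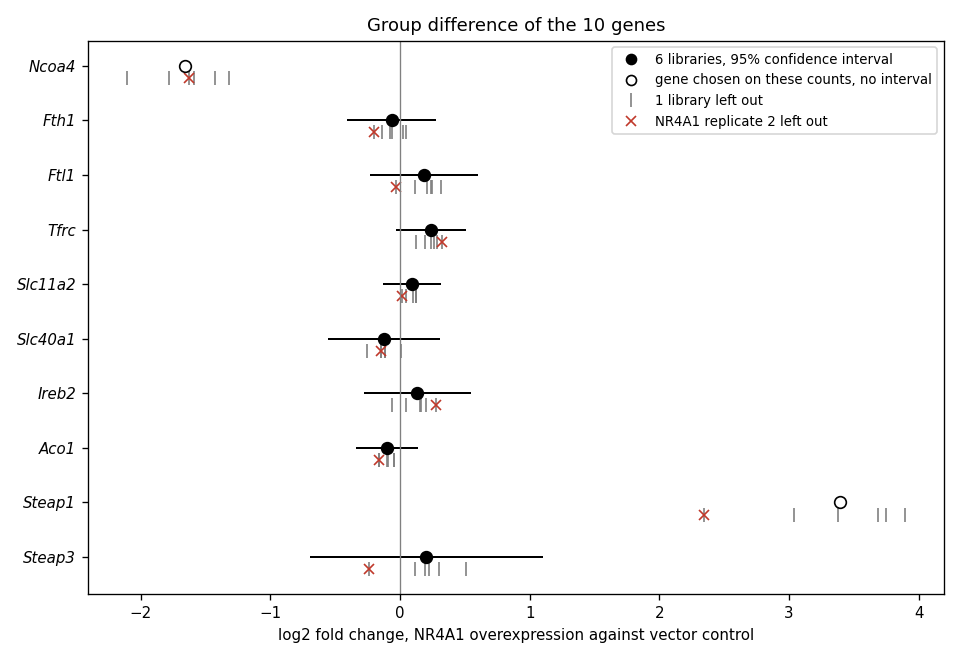
Log2 fold change of each of the 10 genes, NR4A1 overexpression against vector control, from the edgeR fit to 6 libraries with its 95% confidence interval (filled points and lines), and with 1 library left out (ticks; cross, NR4A1 replicate 2 left out). Open points without an interval mark Ncoa4 and Steap1, which were selected on these counts, and the intervals of the other 8 genes all include 0.

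In order of level per length by the deposited FPKM, the members in the vector controls were Fth1 (1341 ± 154 FPKM), Ftl1 (414 ± 36.8), Ireb2 (32.9 ± 3.42), Aco1 (17.1 ± 1.38), Tfrc (16.3 ± 0.972), Ncoa4 (5.52 ± 3.49), Slc11a2 (4.34 ± 0.226), Slc40a1 (0.640 ± 0.0155), Steap3 (0.368 ± 0.0482) and Steap1, as mean ± SD of 3 libraries. Neighbours whose libraries overlapped were Aco1 with Tfrc and Ncoa4 with Slc11a2. With the lengths of the first-listed transcripts (as Fth1-201), on the same scale, Fth1 (1250 ± 144) and Ftl1 (1208 ± 107) overlapped, and so did Ireb2 (33.1 ± 3.44) and Tfrc (32.2 ± 1.92), with Aco1 next (22.1 ± 1.79). Both lengths kept the ferritin chains first and Slc40a1, Steap3 and Steap1 last. Ncoa4 stood below Slc11a2 in vector replicate 1 and above it in replicates 2 and 3.

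Promoters were examined for the response element of NR4A1, the NBRE (AAAGGTCA), on both strands of windows from 250 bases before to 50 bases after each RefSeq start (GRCm38.p6). Of the 10 members 8 had a window, all but Slc11a2 and Slc40a1. None of the 8 held the NBRE, which was found for 460 of 27025 genes (1.70%). The antioxidant response element (TGACNNNGC, both strands), through which NRF2 acts on ferritin and other iron genes, was found for 1 member, Ncoa4, and for 14.0% of all genes. These are matches of letters in short windows and do not bear on elements elsewhere.

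The pathway around the members was followed in 96 other iron genes listed by role, of which 94 were in the table under these names and 81 were tested. None was called by the 2-fold and adjusted p threshold, and none by DESeq2. Of all genes, edgeR called 0.170% and DESeq2 called 73 of 12941. With an unadjusted p under 0.05 there was 1 of 81 genes, Acsl4, beside 6.46% of all genes, and the median log2 fold change was −0.02, against 0.01 over all genes tested. The groups did not overlap for 3 genes that were higher (Steap2, Txnrd1 and Acsl4) and 4 that were lower (Pcbp2, Mms19, Alad and Slc3a2), counts that lie below the shares over all genes of 6.69% and 6.22%. Without NR4A1 replicate 2, 1 gene higher and 4 lower had an unadjusted p under 0.05, beside 8.19% of all genes, 0 were called and the median was −0.10.

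By role, the median log2 fold change was 0.08 for 12 genes of uptake and export, 0.04 for 6 genes of storage and sensing, −0.02 for 29 genes of mitochondrial iron and iron-sulfur cluster assembly, −0.06 for 19 heme genes and 0.01 for 15 genes of NRF2 and defence against lipid peroxides.

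The smallest p-values among higher genes belonged to Acsl4, Steap2 and Txnrd1. Acsl4, which puts polyunsaturated fatty acids into phospholipids, had 1573, 1385 and 1686 counts with NR4A1 and 887, 1211 and 1454 in the controls (log2 fold change 0.47, SE 0.183, edgeR adjusted p = 0.724). The lowest NR4A1 value was close to the highest control. Without NR4A1 replicate 2 the log2 fold change of Acsl4 was 0.57. Txnrd1, thioredoxin reductase 1, changed by 0.19 on the log2 scale (SE 0.0865, edgeR adjusted p = 0.784), and by 0.12 without NR4A1 replicate 2.

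Among lower genes, Alad and Slc11a1 were of the 3 with the smallest p-values. Alad, the second enzyme of heme synthesis, stood at −0.21 (SE 0.0957, edgeR adjusted p = 0.784), and at −0.25 without NR4A1 replicate 2. Slc11a1, the phagosomal metal transporter, had 18, 19 and 34 counts against 36, 50 and 33 (log2 fold change −0.68, SE 0.321, edgeR adjusted p = 0.801). Its log2 fold change was −0.53 without NR4A1 replicate 2. None of the differences named passed the adjustment.

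**Figure D4:**
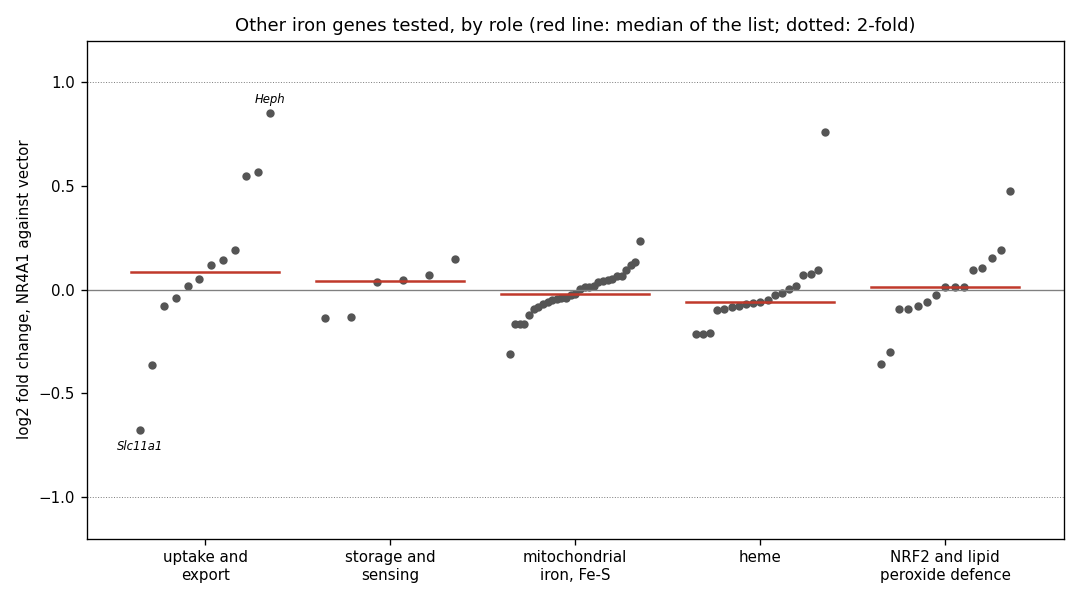
Log2 fold change (NR4A1 overexpression against vector control, edgeR fit to 3 libraries per group) of the 81 tested genes of the wider iron list, 1 point per gene sorted within its role, with the median of each list as a red line, 2-fold changes as dotted lines and the lowest and highest gene named. All points lie between −0.68 (Slc11a1) and 0.85 (Heph), inside the 2-fold lines, and the medians lie close to 0. Heph rested on NR4A1 replicate 2 and was at −0.16 without it.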

How the data were processed

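RNA-seq libraries of MLE-12 cells (3 with NR4A1 overexpression, 3 with vector) were grouped by the treatment in their labels. Per the study's methods, libraries were made with a strand-specific TruSeq kit and sequenced on an Illumina NovaSeq. The submitters' processing notes name HISAT2 2.0.4 and GRCm38.p4. The counting program and annotation are not given in the sources used here. The authors deposited whole-number read counts per gene and library and FPKM, which scale those counts by gene length and library total. Counts of genes that share sequence cannot be separated here. Of 34267 gene identifiers shared with GENCODE M21, 27682 (80.8%) had the same position.

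The counts were scaled by TMM, filtered with filterByExpr and tested by quasi-likelihood (edgeR 4.0.16, run under R 4.3.3), and p-values were adjusted over 12941 genes by Benjamini-Hochberg. A call needed a 2-fold change beside an adjusted p under 0.05. FPKM served for levels between genes, beside levels by the GENCODE M21 lengths of first-listed transcripts (as Fth1-201) and of merged exons, added after the data were seen because the FPKM length of Ftl1 exceeded its locus. Total counts of 15019038 to 17574340 set the precision, and limits from counts cover counting error only. On simulated counts with 200 genes changed 3-fold, edgeR recovered 175 (87.5%) of those among 12795 tested, with 4 false calls. Replicates of a group differed by more than counting noise (chi-square per degree of freedom 9.36 to 41.8).

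Alternatives were DESeq2 1.42.0, median-ratio size factors, library totals, no count filter, an unadjusted p, no fold threshold, the replicate number as a block, limma 3.58.1 on log2(FPKM + 1) where a group's mean FPKM reached 1, each library left out, and sums with sequence-sharing genes. The genes named are the members, Nr4a1, in the wider list the 3 smallest p-values in each direction and genes without overlap, the 5 genes most like Ncoa4 or Steap1, their neighbours within 200 kb, and sequence-sharing pseudogenes, except items that are not reported here. The members and lists were chosen with earlier results of these data known. Sequences were read with Python 3.11.15 and Biopython 1.88.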

Additional observations from a re-analysis of the deposited data

How the results depend on the processing

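The number of genes called over the whole table, 22, was 73 with DESeq2, 7 with limma on log2(FPKM + 1), 161 with an unadjusted p and 3 to 28 as each library was left out (28 without NR4A1 replicate 2, 3 without NR4A1 replicate 3, 4 without NR4A1 replicate 1 and 6 without each vector control). The labels do not say whether same-numbered libraries were paired, and the main fit did not pair them. Correlations of their deviations were −0.02, −0.11 and 0.30, and a replicate block gave 5. The number of the 10 iron handling genes called, 0, was 1 with DESeq2 (Steap1), 2 with an unadjusted p (Ncoa4 and Steap1) and 0 to 1 as each library was left out (Ncoa4, without vector replicate 1). The block called none of them, and no alternative called a gene of the wider iron list at an adjusted p.

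The direction of 5 of the members changed when 1 library was left out, within ranges of −0.20 to 0.044 for Fth1, −0.030 to 0.31 for Ftl1, −0.25 to 0.0083 for Slc40a1, −0.058 to 0.28 for Ireb2 and −0.24 to 0.51 for Steap3 (log2). The cause was not tested. The log2 difference of Steap1 was 2.35 without NR4A1 replicate 2 and 1.10 with limma on log2(FPKM + 1), a scale that understates changes of low genes. That of Ncoa4 was −0.10 when its counts were summed with the larger counts of Gm6768. Lengths chosen after the data were seen turned the mean Fth1 to Ftl1 ratio of the controls from 3.28 by FPKM to 1.05 with the Fth1-201 and Ftl1-201 transcripts and 0.388 with merged exons. Slc40a1 and Steap3 fell below the FPKM minimum and have no limma value. With 3 libraries a group and 2 to 106 counts per library, Steap1 is the member that depth limits most.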

Other observations

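Several iron genes outside the members were high in NR4A1 replicate 2 alone, and were named after their values were seen. Hmox1, which releases iron from heme, had 555, 2852 and 712 counts with NR4A1 and 794, 886 and 848 in the controls, and its log2 fold change went from 0.76 to −0.32 without that library (edgeR adjusted p = 0.530). Heph, the ferroxidase hephaestin, had 11, 53 and 14 against 26, 9 and 10 counts. Bmp6, a signal for hepcidin made by endothelial cells, had 0, 95 and 4 against 1, 2 and 1, and Epas1, a hypoxia-inducible factor subunit abundant in endothelium, had 2, 383 and 0 against 10, 1 and 1. Trf, transferrin, had 4, 39 and 0 against 5, 7 and 12, and Lcn2, a siderophore carrier, had 3, 30 and 0 against 4, 1 and 3. This is the library whose endothelial markers summed to 115 CPM against 7.82 to 9.71 in the others, and the part of other cell types in these counts was not tested.

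The reverse of the Ncoa4 pattern was seen for Pcyt1a (chr16:32430921-32475070), which encodes the rate-limiting enzyme of phosphatidylcholine synthesis and lies upstream of Tfrc on chromosome 16. It had 2412, 2507 and 2587 counts with NR4A1 and 2856, 672 and 941 in the controls, so vector replicates 2 and 3 were low where they were high for Ncoa4. Aen, a nuclease gene, had 521, 891 and 608 counts against 483, 198 and 184. Both were named after their values were seen, and no test was made of the difference among the controls.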
